A study of Mus musculus with 27 samples.

Results

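R55 and R33 are small molecules that were made to hold the retromer complex together, and the comparison described here sets their effects on cortical RNA side by side. It rests on 10 RNA-seq libraries, 5 from mice injected with R55 and 5 from mice injected with R33, chosen by the drug and the hemisphere in their labels, out of 27 libraries used from the series. Each of the 10 came from a different female mouse, a 5xFAD on a C57BL6 background and 16 weeks old, a strain in which human transgenes drive amyloid deposition in the brain, so all of the groups carry the disease model and no wild-type tissue is part of the comparison. Each drug was given into the parietal cortex once as 0.5 µL of a 10 mM solution, and a block of about 1 mm3 around the injection site was taken 24 h later, so dose and time were matched. The 4 libraries of the injected hemisphere of vehicle-treated mice gave the level without drug, with cyclodextrin and DMSO but no compound in the solution, and 9 libraries of the opposite hemisphere of the same drug-treated mice, 5 after R55 and 4 after R33, gave a comparison away from the needle. The study's methods give 6 mice per group for sequencing, and 5, 5 and 4 injected libraries were used here. Mice are named by the letters of their labels: P, AA, Q, R and AB received R55, K, AE, O, N and AD received R33, and J, M, L and AH received vehicle. AD is such a label and not the disease.

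Retromer is a coat of endosomes. VPS35, VPS26 and VPS29 form a trimer that captures membrane proteins and, with sorting nexins and the actin-nucleating WASH complex, returns them to the Golgi or to the cell surface. Cargo in neurons includes the sorting receptor SORL1, which carries the amyloid precursor protein, and AMPA-type glutamate receptors. Both compounds were described as pharmacological chaperones of the VPS35 and VPS29 interface, and they act on protein, so RNA is a downstream readout.

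Values are FPKM, fragments scaled by the length of the gene and by the total counted in the library. The 10 libraries held 20187307 to 33813660 fragments on genes, with a median of 28214212 after R55 and 28489017 after R33, so depth was alike in both groups. Differences are on the scale of log2(FPKM + 1), R55 minus R33, so a positive value means higher after R55, and the added 1 understates the change of genes of low expression. They came from 1 limma fit of the 14 injected libraries with Benjamini-Hochberg adjustment over 12980 genes, those whose mean reached 1 FPKM, and the threshold was an adjusted p-value of 0.05. Genes with p below 0.05 before adjustment are said to reach the nominal level. Replicates are separate mice, so the spread within a group is that between animals, and 1 pair of compounds was compared.

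The libraries differed in ways that the groups did not explain. The R33 library of mouse AD stood apart from the other 13. Its mean correlation with them was 0.960, against 0.976 to 0.985 for the rest, and its deviation from the mean fell with gene length at a Spearman's rho of -0.70 across genes, where the other libraries lay between -0.21 and 0.37. Many values are therefore also given without it. The dissected blocks differed too. All 15 markers of excitatory cortical neurons passed the filter, with a summed level of 1788 to 3742 FPKM after R33 and 2539 to 3196 FPKM after R55, but transcripts of neighbouring regions were present as well. The 6 choroid plexus markers summed to between 7.32 and 1676 FPKM after R33 and between 4.30 and 69.4 FPKM after R55, and the highest libraries were N and K, both R33. The 9 striatal markers were high in N, where they summed to 481.5 FPKM against at most 106.1 FPKM in any R55 library, and also in vehicle control L. Hippocampal markers were highest in K, AE and O of the R33 group, P of the R55 group and J and M of the vehicle group, and thalamic markers in P and J.

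**Figure D1:**
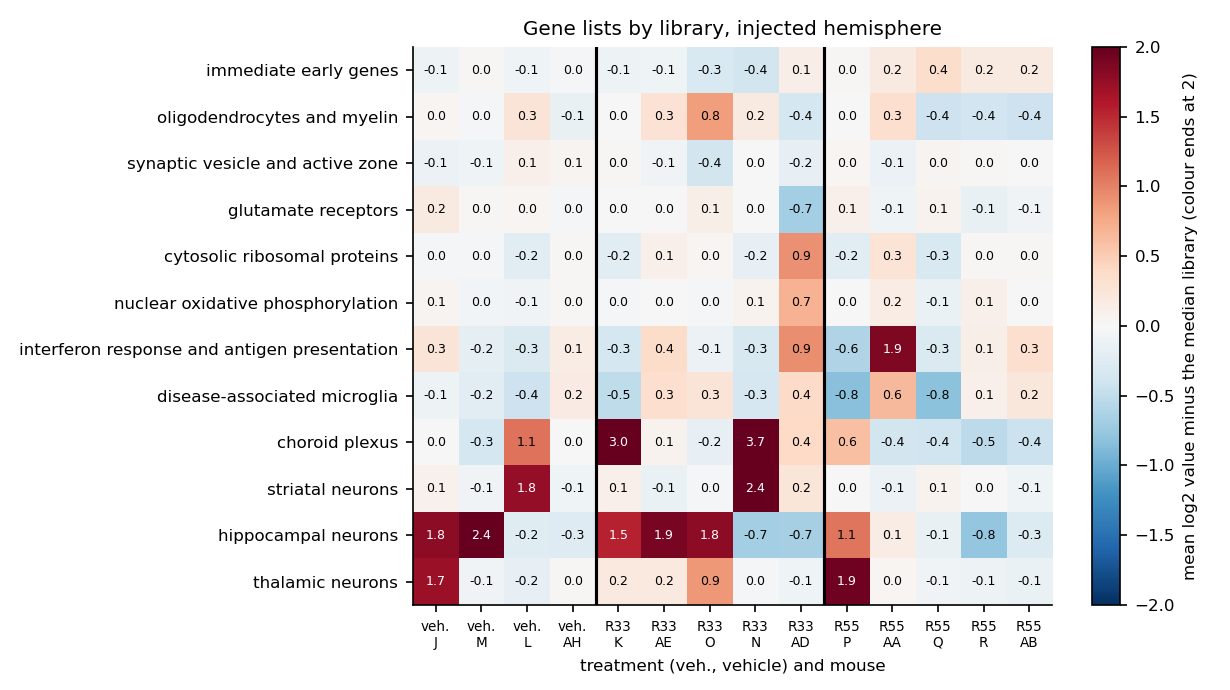
Gene lists (rows) by library (columns) of the injected hemisphere, with vehicle, R33 and R55 separated by black lines. Each cell gives the mean log2(FPKM + 1) over the tested genes of the list minus the median of the 14 libraries. Choroid plexus markers stand out at 3.0 and 3.7 in R33 mice K and N, ribosomal protein genes at 0.9 in R33 mouse AD, and interferon genes at 1.9 in R55 mouse AA.

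Between R55 and R33 no gene of 12980 passed the threshold (0% called, smallest adjusted p = 0.9996, limma). The nominal level was reached by 506 genes (3.9%), of which 268 were higher after R55 (2.06%) and 238 lower (1.83%), and limma voom on the recovered fragments gave 490 such genes and called 0. Leaving out R33 mouse AD raised the number to 996, with 529 higher (4.08%) and 467 lower (3.6%), again with 0 called (smallest adjusted p = 0.112, limma). Without R55 mouse Q it was 268. A p-value that misses the threshold does not show that the compounds act alike, and the intervals say how far apart they could be. The median standard error of a difference was 0.107. The 95% interval lay within 0.5 log2 units of 0 for 10773 genes (83%) and within 1 log2 unit for 12725 genes (98%). On this log2(FPKM + 1) scale these mice thus put a bound on the difference between the compounds for most tested genes. For genes of low expression the added 1 narrows the interval, so the fold change is bounded less. Without R33 mice K and N the interval lay within 0.5 log2 units for 9050 genes (69.6%).

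**Figure D2:**
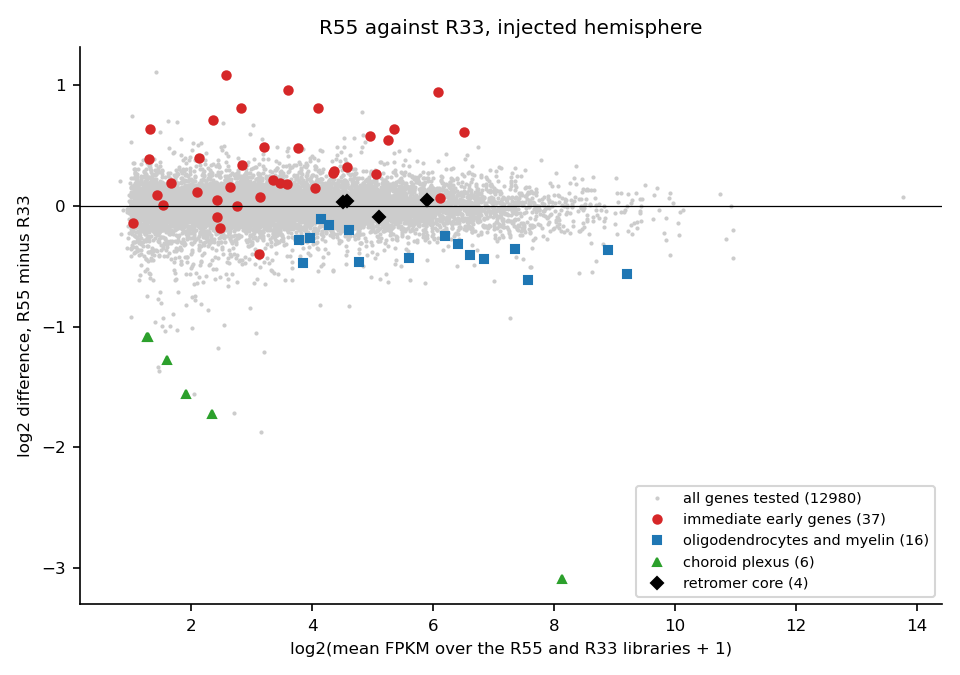
Difference between R55 and R33 (y axis, log2 units) against mean expression (x axis, log2 of the mean FPKM plus 1) for each of 12980 tested genes (grey), with 4 gene lists coloured. Most immediate early genes lie above 0, all myelin and choroid plexus genes lie below 0, and the retromer core lies near 0.

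The genes of the retromer trimer itself had almost the same RNA level after both compounds. Vps35, which encodes the central scaffold of the complex (chromosome 8, 85986024 to 86026431 on GRCm39), measured 65.9, 59.6, 59.8, 59.3 and 54.5 FPKM in R55 mice P, AA, Q, R and AB. In R33 mice K, AE, O, N and AD it measured 59.3, 54.6, 57.2, 60.9 and 57.5 FPKM, and in the vehicle controls 50.6 to 60.0 FPKM. The ranges of the drug groups overlapped almost completely. The group means were 59.8 ± 4.06 FPKM after R55 and 57.9 ± 2.40 FPKM after R33 (SD, n = 5 each), a difference of 0.04 on the log2 scale with a 95% interval from -0.10 to 0.19 (exact permutation p = 0.413, two-sided). Vps26a and Vps26b, the alternative arrestin-like subunits that attach to one end of VPS35, differed by 0.04 (-0.11 to 0.19) and 0.03 (-0.09 to 0.16). Vps29, the subunit at the other end, differed by -0.10 with a wider interval from -0.35 to 0.16. None of these 4 genes reached the nominal level, with or without mouse AD. Exons of Vps35, Vps29 and Vps26b overlap an annotated gene on the opposite strand.

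The lists of partners and cargo of retromer had small median differences. All 20 genes of the list of recruiting and partner proteins were tested, and 5 were higher and 15 lower after R55 with a median of -0.04, none at the nominal level. Without AD 11 were higher and 9 lower, and the median was 0.002. The range over all 10 mice ran from 0.17 for Ankrd50, a scaffold that joins the complex to SNX27 and WASH, to -0.23 for Ehd1, an ATPase of recycling endosomes. Rab7, the GTPase that brings retromer to late endosomes, differed by -0.02 (-0.15 to 0.11), and Snx27, the nexin that binds receptors for return to the surface, by 0.03 (-0.13 to 0.18). Of 17 cargo and sorting receptor genes 16 were tested, 9 higher and 7 lower, none at the nominal level, with a median of 0.04. Without R33 mouse AD the median was -0.07 and 5 reached the nominal level, all lower (3.6% of all tested genes were lower at that level in that setting), so the sign of this list depended on that library.

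Sorl1 was 1 of the genes that changed sign with it. It measured 27.2 to 35.5 FPKM in the R55 mice and 32.6 to 38.8 FPKM in R33 mice K, AE, O and N, but 15.2 FPKM in AD. Vehicle controls gave 38.8 to 41.6 FPKM, above all 5 R55 mice. Its difference was 0.06 (-0.34 to 0.46) with AD and -0.17 (-0.33 to -0.01, adjusted p = 0.621, limma) without it. Sort1, the related receptor sortilin, was likewise lowest in AD at 42.2 FPKM against 100.4 to 115.6 FPKM in the other R33 mice. Sorcs3, another receptor of that family, had the highest difference of the list at 0.25 (-0.11 to 0.60), with AD lowest at 5.16 FPKM. Gria1, which encodes an AMPA receptor subunit, had the lowest difference of the list at -0.37 (-1.06 to 0.33). It ran from 36.3 to 127.5 FPKM within the R33 group alone and was highest there in AE and O, which also had high hippocampal markers, and the part of those markers in the difference was not tested.

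The Vps13 genes encode bridge-like proteins that carry lipids between membranes, and all 4 have long transcripts. Vps13a measured 4.18 to 5.88 FPKM after R55 and 3.32 to 5.89 FPKM after R33. Vps13b, Vps13c and Vps13d were each lowest of all 14 libraries in AD, at 2.59, 2.34 and 4.63 FPKM. The 4 differences were 0.13, -0.08, -0.16 and -0.06, and every 95% interval held 0. Without AD the R33 mice were left at 3.75 to 5.35 FPKM for Vps13b against 3.32 to 4.21 FPKM after R55, and the differences of Vps13b, Vps13c and Vps13d became -0.20, -0.29 and -0.16 with intervals that ended just below 0 (adjusted p = 0.621, 0.565 and 0.621, limma). The vehicle controls, at 4.40 to 4.93 FPKM of Vps13b, lay above all 5 R55 mice. Of 10 bridge-protein genes in the list, 6 were found in the table under the symbols listed and tested. A gene held there under an older symbol would have been missed.

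**Figure D3:**
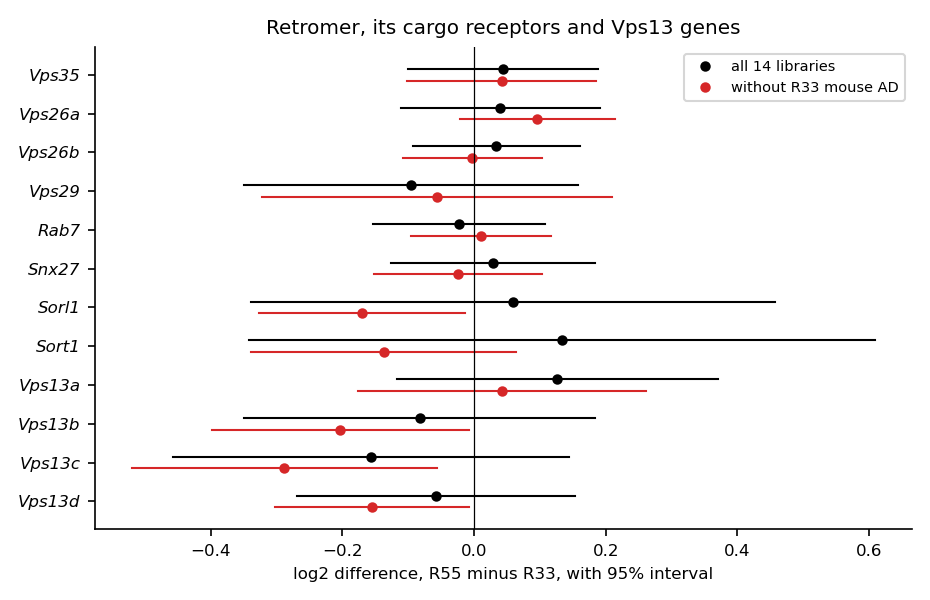
Difference between R55 and R33 (x axis, log2 units, point and 95% interval) for genes of retromer, its partners and cargo receptors and the Vps13 family (y axis), from all 14 libraries (black) and without R33 mouse AD (red). The intervals of Vps35 run from -0.10 to 0.19, and Sorl1 and Sort1 move from above to below 0 when AD is left out.

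Of all lists, the immediate early genes held the most members at the nominal level. These are switched on within minutes of synaptic activity, growth factors or injury, without new protein synthesis, and many encode transcription factors. Of 38 genes in the list 37 were tested, and 32 were higher after R55 and 5 lower. The nominal level was reached by 17, all higher (2.06% of all tested genes were higher at that level), and 0 passed the adjusted threshold. The list was chosen with earlier results of these data known, so the count describes the list and does not test it. The median difference was 0.27 over the list and -0.0015 over all tested genes. Without R33 mouse AD 22 reached that level, all higher, and the median was 0.37. Without R33 mice K and N, which held choroid plexus transcripts, there were 12, all higher (4.58% of all tested genes in that setting), with a median of 0.26.

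Fos, a subunit of the AP-1 transcription factor and the usual marker of recent neuronal activity, is located at 85520658 to 85524047 on chromosome 12. It measured 10.5, 15.1, 22.6, 14.1 and 12.6 FPKM in R55 mice P, AA, Q, R and AB, and 6.62, 7.27, 6.25, 4.28 and 12.4 FPKM in R33 mice K, AE, O, N and AD. Vehicle controls gave 5.70 to 10.8 FPKM, so all R55 mice but P lay above the vehicle range and 4 of the 5 R33 mice lay within or below it. Only AD of the R33 mice overlapped the R55 group. The group means were 14.98 ± 4.59 and 7.36 ± 3.01 FPKM (SD, n = 5 each), a difference of 0.96 with a 95% interval from 0.46 to 1.46 (adjusted p = 0.9996, limma). Without AD it was 1.15 (adjusted p = 0.242, limma).

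Btg2, an antiproliferative co-factor of mRNA deadenylation, was 1 of 2 listed genes whose groups did not overlap. Its values were 7.26, 7.69, 12.5, 6.60 and 5.99 FPKM after R55 and 4.66, 3.97, 3.55, 2.57 and 5.84 FPKM after R33, in the same order of mice. The difference was 0.81 (0.39 to 1.23). The other gene was Apold1, an endothelial early response gene, at 1.30 to 2.56 FPKM after R55 and 1.03 to 1.25 FPKM after R33, with a difference of 0.39 (0.15 to 0.63). Across all tested genes the groups did not overlap for 52 higher genes (0.401%) and for 23 lower genes (0.177%).

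Dusp1, a phosphatase that turns off MAP kinases, measured 14.2, 21.2, 27.3, 18.7 and 20.9 FPKM after R55 and 9.67, 10.8, 8.62, 8.09 and 21.7 FPKM after R33. The R33 mice were all below the R55 mice except AD, the last value, which exceeded 4 of them. The difference was 0.81 (0.33 to 1.29) with AD and 1.04 (0.70 to 1.38, adjusted p = 0.112, limma) without it. Ier2, a nuclear early response protein, measured 6.06 to 13.5 FPKM after R55, 4.37 to 6.75 FPKM in 4 R33 mice and 12.3 FPKM in AD, with a difference of 0.49 (0.02 to 0.95).

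The largest difference of the list was that of Npas4, a transcription factor that neurons induce by calcium entry. It measured 8.05, 3.59, 13.5, 5.60 and 5.24 FPKM after R55 and 3.07, 1.72, 2.48, 1.46 and 5.10 FPKM after R33, a difference of 1.08 (0.40 to 1.77). Here AD lay above R55 mouse AA. Arc, which encodes a capsid-like protein of dendrites that removes AMPA receptors, differed by 0.94 (0.21 to 1.67), and in 4 of 5 R55 mice, all but P, it was above every R33 mouse. The Egr transcription factors were higher together, Egr1 by 0.61, Egr2 by 0.64, Egr3 by 0.54 and Egr4 by 0.47. Junb, Nr4a1, Ccn1, Fosb and Dusp6 followed with differences of 0.64, 0.58, 0.71, 0.39 and 0.32. The 95% interval of each of these 9 genes lay above 0.

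Not every early gene followed. Nr4a2, an orphan nuclear receptor, had the lowest difference of the list at -0.40 (-1.27 to 0.47), and it was highest in R33 mouse N at 20.8 FPKM. Bdnf, the slower-rising neurotrophin, measured 3.08 to 6.10 FPKM after R55 and 2.95 to 5.85 FPKM after R33, and its difference of 0.05 ran from -0.43 to 0.52. The mean log2 value over the list was 3.30, 3.45, 3.62, 3.44 and 3.44 in R55 mice P, AA, Q, R and AB and 3.16, 3.18, 2.97, 2.91 and 3.40 in R33 mice K, AE, O, N and AD. Vehicle controls had 3.17 to 3.28, below all 5 R55 mice. By this score 4 of the R33 mice were below every R55 mouse, and AD was above P.

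**Figure D4:**
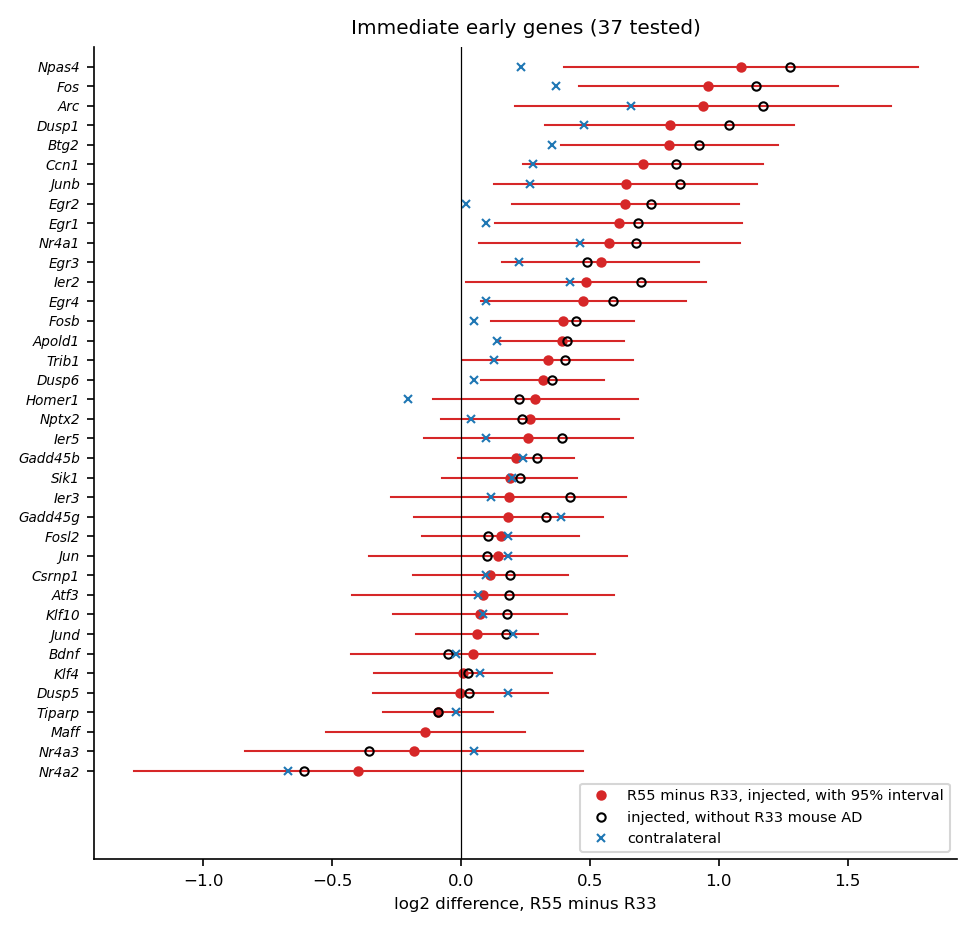
Difference between R55 and R33 (x axis, log2 units) for each of 37 tested immediate early genes (y axis), in the injected hemisphere with its 95% interval (red), in the injected hemisphere without R33 mouse AD (open circles) and in the contralateral hemisphere (blue crosses). The list is led by Npas4 at 1.08 and Fos at 0.96 and ends with Nr4a2 at -0.40.

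Outside that list, the neuropeptide precursor gene Vgf and the protease gene that processes such precursors were also higher after R55. Vgf, which neurons induce by activity and neurotrophins and which is located at 137055246 to 137062205 on chromosome 5, measured 101.2, 98.0, 129.0, 104.5 and 106.1 FPKM in the R55 mice in the order used above. In the R33 mice it measured 93.2, 77.3, 73.4, 78.6 and 77.7 FPKM, and in the vehicle controls 92.4 to 115.3 FPKM. The groups did not overlap, which is part of how the gene was chosen, and the R55 mice were at the level of the vehicle controls while 4 of the R33 mice were below all of those. The difference was 0.42 (0.21 to 0.63) and 0.41 without AD. Pcsk1, which encodes prohormone convertase 1, measured 8.81 to 10.6 FPKM after R55 and 4.43 to 7.84 FPKM after R33, a difference of 0.56 (0.22 to 0.89).

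The full cAMP response element, TGACGTCA, which is bound by CREB and reads the same on both strands, was searched in the 250 bases before the canonical transcript start (GENCODE vM39 on GRCm39). It was present for 7 of 37 immediate early genes (18.9%), and for 267 of 12651 tested genes with a matched start (2.11%). Of the 52 genes that were higher without overlap, 4 held it (7.69%): Btg2, Pcsk1, Vgf and Zfyve27. Those of Vgf, Btg2, Dusp1 and Pcsk1 are printed because these genes are described above with the element near their start, and they were picked after their values were seen. Each runs from 5′ to 3′ and ends at the base before the start, with the element in capitals. It begins 71, 201, 96 and 47 bases before the start, respectively. Vgf is read from chr5:137058880-137059129 on the plus strand, Btg2 from chr1:134006859-134007108 on the minus strand, Dusp1 from chr17:26727494-26727743 on the minus strand and Pcsk1 from chr13:75237695-75237944 on the plus strand.
Vgf: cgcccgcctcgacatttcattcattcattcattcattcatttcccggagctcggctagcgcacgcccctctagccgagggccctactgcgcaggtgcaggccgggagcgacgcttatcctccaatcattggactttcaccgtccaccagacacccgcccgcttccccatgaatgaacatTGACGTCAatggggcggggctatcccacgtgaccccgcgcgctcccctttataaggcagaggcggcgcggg
Btg2: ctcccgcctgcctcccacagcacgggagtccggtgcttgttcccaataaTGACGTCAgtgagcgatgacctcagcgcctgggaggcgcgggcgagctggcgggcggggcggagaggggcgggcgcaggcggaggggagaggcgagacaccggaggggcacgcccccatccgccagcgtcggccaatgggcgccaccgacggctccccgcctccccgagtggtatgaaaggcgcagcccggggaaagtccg
Dusp1: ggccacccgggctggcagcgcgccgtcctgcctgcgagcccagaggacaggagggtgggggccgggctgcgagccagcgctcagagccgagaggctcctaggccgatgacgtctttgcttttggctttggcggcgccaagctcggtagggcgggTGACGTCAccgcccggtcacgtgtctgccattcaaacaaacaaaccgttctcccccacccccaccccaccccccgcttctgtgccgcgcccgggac
Pcsk1: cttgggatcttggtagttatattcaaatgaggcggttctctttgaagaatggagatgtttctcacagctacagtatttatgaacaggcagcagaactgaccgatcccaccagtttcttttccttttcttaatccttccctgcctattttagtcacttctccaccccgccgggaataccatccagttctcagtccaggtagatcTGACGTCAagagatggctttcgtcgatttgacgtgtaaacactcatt
Maff, at -0.14, and Jund, at 0.06, also held it, and whether the element goes with the difference was not tested. A match describes these letters and not a bound site.

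Other genes that were higher after R55 without overlap covered several functions. Kcnf1, a silent potassium channel subunit of cortical neurons, measured 26.01 to 34.1 FPKM after R55 and 14.9 to 24.3 FPKM after R33, with a difference of 0.56 (0.25 to 0.88). Synj2, a phosphoinositide phosphatase of endocytosis, and Pitpnm3, a phosphatidylinositol transfer protein, differed by 0.33 and 0.37. C2cd4c, Fam124a and Pnma1 were higher by 0.40, 0.31 and 0.30. Snord49b, a small nucleolar RNA, had the largest difference of them at 1.10, but it held 2 to 9 fragments in the R55 libraries and 0 to 2 in the R33 libraries, is 63 bp long and shares its position with a host transcript on the same strand. Ulk1, the kinase that starts autophagy, was the highest of 33 tested lysosome and autophagy genes at 0.17 (0.04 to 0.30), and the median of that list was -0.0032.

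**Figure D5:**
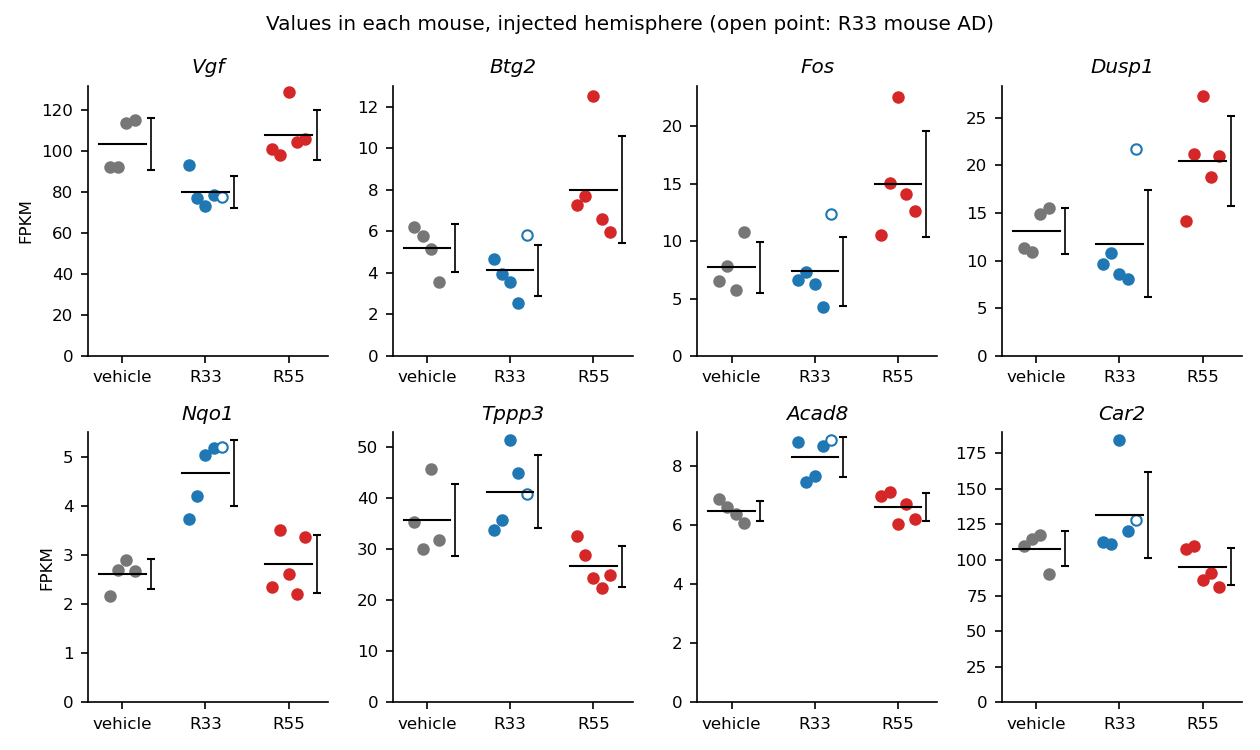
FPKM (y axis, from 0) in each mouse of the injected hemisphere after vehicle (grey), R33 (blue) or R55 (red) for 8 genes. Points are mice, horizontal lines group means, and vertical bars the SD beside them, and the open point is R33 mouse AD. The R55 and R33 mice do not overlap for Vgf, Btg2, Nqo1, Tppp3, Acad8 and Car2, while AD reaches into the R55 range for Fos and Dusp1.

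Among the genes that were lower after R55, Nqo1 had the smallest p-value. It encodes NAD(P)H quinone dehydrogenase, a target of the oxidative stress factor NRF2, and is located at 108113835 to 108129934 on chromosome 8. It measured 2.36, 3.52, 2.61, 2.22 and 3.37 FPKM in R55 mice P, AA, Q, R and AB and 3.73, 4.21, 5.04, 5.18 and 5.21 FPKM in R33 mice K, AE, O, N and AD. The vehicle controls had 2.18, 2.70, 2.91 and 2.68 FPKM, so the R55 mice lay around the vehicle level and all 5 R33 mice above it. The means were 2.82 ± 0.60 and 4.67 ± 0.67 FPKM (SD, n = 5 each), a difference of -0.58 (-0.82 to -0.33, adjusted p = 0.9996, limma) that was -0.54 without AD.

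The next genes in that direction were of different kinds. Tppp3, which encodes a tubulin polymerization protein of ciliated and glial cells, measured 22.3 to 32.6 FPKM after R55 and 33.6 to 51.3 FPKM after R33, a difference of -0.61 (-0.91 to -0.32). Acad8, a mitochondrial enzyme of valine breakdown, measured 6.04 to 7.11 FPKM after R55 and 7.46 to 8.88 FPKM after R33, and vehicle controls had 6.08 to 6.87 FPKM, again at the R55 level. Cetn4, a centrin of basal bodies, differed by -0.35 (-0.51 to -0.18). Further enzymes were Acss2, which makes acetyl-CoA from acetate, at -0.22, Hacl1, a peroxisomal lyase, at -0.28, and Car2, carbonic anhydrase 2 of oligodendrocytes and choroid plexus, at -0.45. Cdr2, Sertad4 and 2010001A14Rik differed by -0.47, -0.43 and -0.47. Exons of Acad8, Cetn4, Acss2, Hacl1, Sertad4, 2010001A14Rik and Tppp3, and of Btg2, Dusp1, Junb, Nr4a1, Ccn1, Dusp6, Egr4, Bdnf, Fam124a, Pnma1 and Synj2 above, overlap an annotated gene on the opposite strand. Those of Hacl1 also overlap Gm49387 on the same strand. Whether the counting used strand is not given in the sources used here.

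Myelin genes had values below 0, by an amount that depended on R33 mouse O. All 16 markers of oligodendrocytes and myelin were tested and all 16 lay below 0 (49.3% of all tested genes lay above 0), with a median of -0.36 and a range from -0.62 for Mobp to -0.11 for Olig2. At the nominal level there were 4 (1.83% of all tested genes were lower at that level), and 12 without R33 mouse AD (3.6%), where the median was -0.56. Without R33 mouse O the median was -0.18, with 2 genes at the nominal level and 2 above 0, and the other 8 fits that left out 1 drug-treated mouse gave medians from -0.49 to -0.28. Mbp, the myelin basic protein gene, measured 487.6, 690.9, 336.3, 423.2 and 437.9 FPKM after R55 and 511.8, 717.3, 945.5, 708.8 and 610.3 FPKM after R33, against 508.0 to 600.3 FPKM in vehicle controls. Mouse O was the highest, and R55 mouse AA lay among the R33 mice. The difference was -0.57 (-0.95 to -0.18). With labels of a single letter, the R55 mice P, Q and R were 0.59 below the R33 mice K, O and N in the mean log2 value of the list, whereas with labels of 2 letters AA and AB differed from AE and AD by -0.0020, with 2 mice against 2. The study's methods state that the corpus callosum was kept out of the tissue, and the part of white matter in these values was not tested. In bulk tissue fewer cells of a type and less RNA per cell cannot be told apart.

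Among markers of tissue next to the cortex, those of choroid plexus, hippocampus and striatum had the lowest medians of all lists, and thalamic markers had a median of 0.11. The 6 choroid plexus genes were all lower after R55, with a median of -1.42, 4 of them at the nominal level (1.83% of all tested genes were lower at that level) and none called. Some of the 6 passed the filter only through high R33 libraries, as 4 were tested without K and 3 without N. Their direction and counts therefore follow in part from that filter. Ttr, transthyretin, the most abundant of these transcripts, measured 65.4, 4.59, 4.34, 3.40 and 4.12 FPKM after R55 and 1047, 9.28, 2.96, 1616 and 27.8 FPKM after R33, so K and N carried the difference. Without K and N its difference was -0.31. The median of the list members still tested was then -0.52. Of these, 0 reached the nominal level (4.15% of all tested genes were lower at that level in that setting). Kl, which encodes klotho, differed by -1.73 (-2.92 to -0.54) and by -0.72 without K and N. The striatal genes had a median of -0.56, which was -0.09 without K and N, and the 5 tested hippocampal genes had a median of -0.64. That of the hippocampal genes was -1.07 without K and N and ran from -1.26 without N to -0.40 without K when 1 drug-treated mouse was left out. Car2 and Igf2, which choroid plexus or meninges also express, had differences of -0.45 and -0.83 over all 10 mice and of -0.54 and -0.57 without K and N.

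The lists of synaptic genes had small median differences, which does not show that single genes were alike. The interval lay within the narrower of the bounds used above for 18 of 22 vesicle genes, but for only 10 of 22 glutamate receptor genes. Of 22 tested genes of synaptic vesicles and active zones 19 were higher after R55, with a median of 0.11 (0.11 without AD) and 1 at the nominal level. The range ran from 0.39 for Sv2b, a vesicle glycoprotein, to -0.05 for Rims1. Of 22 glutamate receptor genes 18 were higher, led by Gria3 at 0.27, but the median of 0.12 became -0.01 without AD, in which receptor genes were low. Calcium channel and release genes had a median of -0.01, with 8 of 18 higher and 0 at the nominal level, and without AD 3 reached it, all lower. Of 44 genes that the study names in its text, a list chosen on these samples, 39 were tested, with 14 higher and 25 lower, a median of -0.04 and 1 at the nominal level. Without AD 14 of them reached that level, 1 higher (4.08% of all tested genes) and 13 lower (3.6%).

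Among cortical cell markers single genes differed, while the lists had medians near 0. Vip, a neuropeptide of a class of interneurons, measured 36.6, 31.7, 31.7, 33.9 and 31.6 FPKM after R55 and 22.5, 19.5, 16.4, 23.8 and 34.4 FPKM after R33. All R55 mice were above K, AE, O and N, and AD was within the R55 range. The difference was 0.53 (0.22 to 0.84), and 0.67 without AD (adjusted p = 0.112, limma). In the 2 R33 mice AE and O against the R55 mice, Vip passed the threshold (2 of 12963 genes, 0.0154%; 0.85, adjusted p = 0.0380, limma), together with Megf10, a phagocytic receptor of astrocytes (-0.60, adjusted p = 0.0380), but 3 of 5 R33 libraries were left out after their values were seen. Rasgrf2, a marker of upper cortical layers, was 0.49 higher after R55 (0.18 to 0.79), and Bcl11b, a marker of deep layers, striatum and hippocampus, differed by -0.57 (-1.16 to 0.02). The lists of excitatory neurons and interneurons had medians of 0.02 and -0.06.

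Glial and immune genes varied more between mice than between compounds. The 28 tested interferon and antigen presentation genes had a median of 0.23 with 23 higher, and 0 at the nominal level. Isg15, an interferon-induced ubiquitin-like protein, measured 45.3 FPKM in R55 mouse AA and 1.91 to 7.67 FPKM in the other R55 mice, and 19.0 FPKM in R33 mouse AD and 2.62 to 4.84 FPKM in the other R33 mice. Its difference was 0.49 with an interval from -0.85 to 1.83. The median of the interferon list turned to -0.17 without R55 mouse AA, with 1 of the 26 genes then tested above 0. It was -0.07 without K and N, while without AD it was 0.38 with all 28 above 0. Of 23 genes of disease-associated microglia, the amyloid-responsive state, 4 were higher and 19 lower with a median of -0.15 (-0.44 without K and N, -0.03 without R55 mouse Q), from 0.33 for Spp1 to -0.45 for Lyz2. Gfap, the filament gene of reactive astrocytes, measured 123.6 to 554.3 FPKM after R55 and 187.8 to 625.7 FPKM after R33, a difference of -0.55 (-1.43 to 0.32). Nes, nestin, was higher by 0.41 (0.05 to 0.77), with AA the highest at 5.55 FPKM.

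Genes of protein synthesis and respiration were high in AD. All 82 ribosomal protein genes that were tested lay below 0, with a median of -0.17 and 0 at the nominal level, and the median was 0.02 without AD and -0.41 without K and N, where AD makes up more of the R33 group and 26 genes were lower at the nominal level (4.15% of all tested genes). Their mean log2 value was 7.74 in AD and 6.61 to 6.93 in the other R33 mice, against 6.52 to 7.10 in the R55 mice. Of 79 nuclear genes of oxidative phosphorylation 76 were lower, with a median of -0.11 that became 0.03 without AD. Cox6b2, a testis-type cytochrome oxidase subunit, was the lowest of them at -0.56 (-0.89 to -0.23) and stayed at -0.51 without AD. Across all tested genes the difference rose with gene length at a Spearman's rho of 0.35, and it was -0.16 without AD (both across genes, not over independent replicates). With each library's trend on length removed, 569 genes reached the nominal level (4.38%) and 0 were called, and the medians were 0.28 for immediate early genes, -0.37 for myelin and -0.08 for ribosomal proteins.

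The other lists had medians nearer to 0 in the fit of all 14 libraries and few members at the nominal level. Of 14 tested genes of amyloid precursor processing 0 reached it, with a median of 0.01 and a range from 0.14 for Adam10, the main alpha-secretase, to -0.06 for Psen2, a catalytic subunit of gamma-secretase. Of 23 genes of the unfolded protein and heat shock responses 15 were higher, with a median of 0.06, and 1 reached that level, the inducible chaperone gene Hspa1b, at 2.89 ± 0.42 FPKM after R55 and 2.22 ± 0.53 FPKM after R33 (SD, n = 5 each; 0.28, 0.01 to 0.56). Per3, a period gene of the circadian clock, was the highest of 19 clock genes at 0.24 (0.02 to 0.46), and the list median was 0.05. Sult1a1, a sulfotransferase, was the lowest of 13 tested glucocorticoid-responsive genes at -0.51 (-0.81 to -0.21), at 6.17 ± 1.06 and 9.32 ± 2.37 FPKM (SD, n = 5 each). S100b, a calcium-binding protein of astrocytes, was the lowest of 15 genes of homeostatic astrocytes at -0.37 (-0.67 to -0.06), while that list had a median of 0.01, which without AD was -0.09 with 14 genes lower. Of 16 endothelial genes 15 were higher, 0 at the nominal level, with a median of 0.16 (0.03 without R33 mouse AE, 0.35 without R55 mouse AA). Cholesterol genes had a median of -0.03, complement genes of -0.03 (-0.33 without K and N) and proteasome genes of -0.02.

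In the contralateral hemisphere of the same mice, 0 of 12967 genes passed for R55 against R33 (smallest adjusted p = 0.996, limma), with 256 at the nominal level, 179 of them higher (1.38%) and 77 lower (0.594%). Immediate early genes were higher there as well in 32 of 36 cases, with a median of 0.13, but 0 reached the nominal level (54.8% of all tested genes lay above 0). Their mean log2 value was 3.28 to 3.64 in the R55 mice and 2.95 to 3.25 in R33 mice K, O and N, and AD stood above all 5 R55 mice at 3.75. Without AD the median was 0.32 and 10 genes reached that level, all higher (3.71% of all tested genes). Interferon genes were all higher there, 25 of 25, 20 of them at the nominal level, with a median of 0.47. The myelin list had the opposite sign, with a median of 0.16, and Nqo1 measured 2.997 to 3.62 FPKM after R55 and 2.55 to 3.23 FPKM after R33. Across all tested genes the contralateral difference fell with gene length, at a Spearman's rho of -0.52. Of 82 ribosomal protein genes 81 lay above 0 there. The part of gene length in these list values was not tested.

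Whether the drug difference itself differed between hemispheres was tested in 1 fit of all 27 libraries, and 0 of 12976 genes passed (575 at the nominal level, 4.43%, with a smallest adjusted p of 0.874, limma). With the mouse as a replicate block, on the within-mouse differences of the 13 mice with both hemispheres, 0 passed as well, with 1492 at that level (11.5%; smallest adjusted p = 0.322, limma). By the blocked fit the hemisphere difference was -0.74 for Nqo1 (-1.17 to -0.31, adjusted p = 0.389, limma), -0.73 for Tppp3 (-1.22 to -0.23) and 0.36 for Vgf (0.00 to 0.71). For Fos it was 0.61 with an interval that held 0 (-0.01 to 1.22). In the blocked fit 7 of 22 synaptic vesicle genes and 6 of 22 glutamate receptor genes had a positive hemisphere difference at the nominal level. In both lists 0 had a negative one at that level. Of the immediate early genes 9 were positive and 0 negative at that level. Of the ribosomal protein genes 0 were positive and 24 negative. Of all tested genes 670 were positive and 822 negative at that level. In the blocked fit the hemisphere difference rose with gene length at a Spearman's rho of 0.57 across genes. The part of gene length in these counts was not tested. Nqo1, Tppp3 and Vgf were chosen on the injected values, which are part of this difference. Their intervals therefore describe it and do not test it.

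Labels of mice have 1 or 2 letters, and both series hold both drugs, 3 mice against 3 and 2 against 2. Within the series of 1 letter, which lacks AD, the difference was 1.27 for Fos, 0.44 for Vgf and -0.73 for Nqo1, and the mean log2 value of the immediate early genes differed by 0.44. Within the series of 2 letters, which holds AD, the same values were 0.49, 0.39, -0.35 and 0.16. For Vgf and Nqo1 the sign was fixed in advance, because they were chosen among genes whose groups did not overlap. Fos and the list kept their sign in both series, on the same mice as above. With the series as a covariate 629 genes reached the nominal level and 0 were called.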

How the data were processed

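RNA was measured by paired-end sequencing of stranded mRNA libraries. The authors aligned reads to GRCm39 with HISAT2 and deposited 1 table of FPKM per gene. The counting tool, its strand setting and the annotation are not given in the sources used here. The table holds 32 libraries, of which 27 have labels here and were used, while 5 were not used.

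Every FPKM was a whole multiple of 1 fragment (100% within 0.01 fragments), which gave the counted fragments and each library's depth. The fit was limma 3.58.1 in R 4.3.3 (lmFit, empirical Bayes with an intensity trend, 11 residual degrees of freedom) on log2(FPKM + 1) of the 14 injected libraries, for genes whose mean reached 1 FPKM, with Benjamini-Hochberg adjustment. Groups came from the sample labels. An exact permutation test of 5 mice against 5 cannot go below p = 0.007937 (252 splits). The fit was tested on simulated data. Named genes were, per direction, the 10 with the smallest p-values among those whose groups did not overlap, the retromer, Vps13 and immediate early genes, the highest and lowest member of each list, and genes called under an alternative. The members, the 40 lists and the genes searched for a motif were chosen with earlier results of these data known. Gene positions came from GENCODE vM39 (23703 of 26264 symbols matched).

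Hemispheres of a mouse pair by design, and their deviations from the group means correlated at -0.08 to 0.65 (median 0.45, 13 mice). Alternatives were other filters, pseudocounts, scalings, removal of length or GC trends, limma voom, the replicate block and leaving out each mouse. Leaving out R33 mice K and N, with or without AD, and AD from the contralateral fit, was chosen after seeing the data.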

Additional observations from a re-analysis of the deposited data

Results flagged for a closer look

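In 38 of 363 tests, groups of 4 or 5 mice of one treatment held a mouse whose gap to the nearest other mouse exceeded Dixon's 95% critical value. Chance gives about 1 in 20 per test, but the tests reuse the same mice and related genes, so they are not independent.

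Mouse AD of the R33 group held 15 of these values. Its FPKM was far below the other R33 mice for Sorl1 (15.24 against 32.62 to 38.75), Sort1 (42.2 against 100.4 to 115.6), Sorcs3 (5.158 against 8.462 to 9.162), Adam10 (14.27) and Megf10 (1.215 against 5.209 to 7.931). It was far above them for Dusp1 (21.68 against 8.086 to 10.82), Isg15 (19.04 against 2.621 to 4.839), Jund (91.42) and 2010001A14Rik (9.597 against 5.032 to 5.467). In mean log2 value it was low for genes of amyloid precursor processing (4.288), glutamate receptors (3.232) and calcium channels (3.575), and high for ribosomal proteins (7.738), nuclear oxidative phosphorylation (7.382) and the proteasome (6.037).

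Other R33 mice were set apart by single values. K had the highest Vgf (93.19 FPKM) and O the highest Car2 (184.4 FPKM). AE had the lowest Vps29 (28.07 FPKM) and the lowest mean log2 value of the retromer core (4.895), and the highest of cholesterol genes (4.634). N had the highest value of striatal genes (5.086 against 2.577 to 2.955).

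Among R55 mice, Q had the highest Vgf (129.0 FPKM against 98.04 to 106.1) and R the lowest Vps26b (20.22 FPKM). P had the lowest Arc (45.79 FPKM against 89.77 to 103.0), the highest Ttr (65.36 FPKM) and the highest mean log2 values of choroid plexus (1.674) and thalamic genes (4.096). AA had the highest Olig2 (21.99 FPKM), the lowest Per3 (5.337 FPKM) and the lowest value of synaptic vesicle genes (6.963).

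In the vehicle group M had the lowest Kcnf1 (16.92 FPKM) and Ankrd50 (6.354 FPKM), the highest mean log2 value of postsynaptic scaffold genes (5.504) and the lowest of interneuron genes (4.295). J had the lowest Egr4 (6.862 FPKM) and the highest value of thalamic genes (3.877), and L the lowest Spp1 (3.453 FPKM) and the highest value of striatal genes (4.48 against 2.625 to 2.803).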

How the results depend on the processing

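No gene passed for R55 against R33 under any setting except when R33 mice AD, K and N were all left out, where 2 did. Genes at an unadjusted p-value under 0.05 numbered 1805 in that setting, 1135 without K and N, and 888 with no filter on low values, where more genes were tested. Leaving out 1 library gave 268 (without Q) to 996 (without AD). Over all 27 libraries there were 410 with a replicate block for the mouse and 423 without the block, and the block changed no call. For the difference between hemispheres the count was 1492 with the block and 894 with no filter. Leaving out 1 mouse with all its libraries gave 206 (without Q) to 730 (without R), and 350 without O. Why these counts moved was not tested. Of 2345 differences of 81 named genes over 29 settings, 2325 lay within 1 SD of the value reported and 33, in 17 genes, had the other sign. Of 1160 list medians 1153 lay within 1 SD and 98, in 26 of 40 lists, changed sign. Settings that left out a vehicle mouse, or changed only the estimate of the spread, are counted here. They could not move the difference of a gene, so these shares overstate how stable the values were. With 5 mice a group and a median standard error of 0.107, small differences were not detectable.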
